A study of Homo sapiens with 8 samples.

Results

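RFX7 belongs to the RFX transcription factors, which share a winged-helix domain that recognises the X-box. It is known to act downstream of p53 on genes that restrain growth, mainly from their promoters. The peaks described here are those that lie away from coding genes and away from other peaks. They were chosen by position: an entry was taken when its summit lay more than 5 kb from both ends of every protein-coding gene and when at most 1 other entry of the same list had its summit within 100 kb. This rule kept 133 of 505 peaks called in solvent-treated cells (DMSO) and 158 of 622 called in Nutlin-3a-treated cells, 291 of 1127 in all. Joining peaks that overlap gave 220 sites, of which 70 held an isolated peak in both lists. Isolated peaks called between coding genes numbered 110 and 125 in the DMSO and Nutlin-3a lists, and those inside the body of a coding gene 23 and 33.

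The cells were HCT116, an established human colon carcinoma line with wild-type p53. They were kept for 24 h in the DMSO solvent or in 10 µM Nutlin-3a, an inhibitor of the MDM2-p53 interaction that stabilises p53. RFX7 was immunoprecipitated with a commercial antibody, and 2 RFX7 and 2 input libraries belong to each treatment. A single peak list stands for each treatment, with no value per replicate, so no difference between the treatments was tested. The presence of a peak is itself a measured call. Distance and isolation are therefore descriptions of how the peaks were picked, and the number of reads behind each list is unknown. The fold enrichment printed below is the authors' own value for each peak and ranks peaks within one list. Intervals in brackets are 95% Wilson intervals for a share of peaks, cover counting error only and treat peaks as independent, which neighbouring peaks are not.

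An RFX7 peak far from the outer ends of a coding gene can still sit at a promoter, either of a noncoding gene or of a shorter transcript that starts inside the gene. RefSeq promoter sequences (GRCh38.p14, hg38 coordinates) were matched to the isolated peaks, and 20 listed windows of 15 genes, 8 coding and 7 noncoding, were overlapped by at least 1 bp. The 250 bases upstream of 5 of these starts are shown because they lie under the peaks that the results turn on. The 21 bases centred on a peak summit are in capitals. FPASL is an lncRNA gene with no coding gene within 5 kb of its peak (chr7:76317997-76318246, plus strand, intergenic, DMSO summit). LINC01778 is an intergenic lncRNA (chr1:30824402-30824651, plus strand, DMSO summit). EPCAM-DT is an lncRNA transcribed away from EPCAM (chr2:47345075-47345324, minus strand, Nutlin-3a summit). PIK3R3 encodes a regulatory subunit of phosphoinositide 3-kinase (chr1:46133037-46133286, minus strand, inside the gene, DMSO summit). ATOSA is a gene of the atos family whose body held 2 such peaks (chr15:52652041-52652290, minus strand, inside the gene, Nutlin-3a summit).
FPASL: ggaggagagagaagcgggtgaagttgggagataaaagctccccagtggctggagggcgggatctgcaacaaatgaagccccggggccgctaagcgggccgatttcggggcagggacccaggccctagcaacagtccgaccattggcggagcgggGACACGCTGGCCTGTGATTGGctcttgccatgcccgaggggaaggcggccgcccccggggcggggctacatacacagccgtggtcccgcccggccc
LINC01778: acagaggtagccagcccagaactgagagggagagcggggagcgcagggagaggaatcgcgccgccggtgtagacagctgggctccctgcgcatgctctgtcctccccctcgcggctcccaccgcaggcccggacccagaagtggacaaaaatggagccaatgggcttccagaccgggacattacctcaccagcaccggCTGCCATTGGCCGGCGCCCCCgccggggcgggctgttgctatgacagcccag
EPCAM-DT: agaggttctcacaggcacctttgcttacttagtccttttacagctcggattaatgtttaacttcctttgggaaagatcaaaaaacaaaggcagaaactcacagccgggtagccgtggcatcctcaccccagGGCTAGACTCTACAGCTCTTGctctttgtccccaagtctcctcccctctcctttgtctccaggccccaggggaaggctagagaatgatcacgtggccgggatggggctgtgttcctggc
PIK3R3: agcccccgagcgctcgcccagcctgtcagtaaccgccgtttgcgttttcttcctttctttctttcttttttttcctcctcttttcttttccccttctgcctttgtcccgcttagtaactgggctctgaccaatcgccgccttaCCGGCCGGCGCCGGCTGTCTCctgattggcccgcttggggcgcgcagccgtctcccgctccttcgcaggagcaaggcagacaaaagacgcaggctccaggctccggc
ATOSA: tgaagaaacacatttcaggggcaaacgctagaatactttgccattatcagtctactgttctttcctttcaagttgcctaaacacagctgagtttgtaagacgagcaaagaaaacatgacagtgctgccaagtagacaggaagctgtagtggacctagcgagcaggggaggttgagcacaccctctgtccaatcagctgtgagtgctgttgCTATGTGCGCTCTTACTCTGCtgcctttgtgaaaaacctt

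The core of the RFX half-site was searched on both strands of these windows, which run from 250 bases before to 50 bases after each start. The motif GTTGCCA was in 0 of the 20 windows under isolated peaks (0 to 16.1%), in 10 of 127 windows (7.87%) overlapped by other entries alone, and in 4.08% of all 35116 listed windows. The shorter motif GTTGCC, which is contained in the first, was in 4 of the 20 windows (20%, 8.07 to 41.6%), in 31.5% of the windows under other entries and in 12.2% of all windows. A facing pair of half-sites, GTTNCC followed by GGNAAC after 0 to 3 bases, was in 0 of the 20 windows and in 0.740% of all windows. With 20 windows, some of the same gene, the shares do not separate isolated peaks from all promoters. The 4 windows with GTTGCC belong to 3 genes, since 2 of the 3 PIK3R3 windows hold one and the same match. The 30 bases around each match are shown, with the match or its reverse complement GGCAAC in capitals. The PIK3R3 match (chr1:46133022-46133051, minus strand) lies 94 bp from the DMSO summit and 376 bp from the Nutlin-3a summit, which is an uncertain one. The CEP164 match (chr11:117327856-117327885, plus strand) begins 14 bases after a start inside that centrosome gene and lies 14 bp from the Nutlin-3a summit. The ATOSA match (chr15:52652202-52652231, minus strand) lies 144 bp from the Nutlin-3a summit. It falls outside the peak itself, which spans chr15:52651982-52652189, since a window needed only 1 bp of overlap. None of the 5 genes printed above other than PIK3R3 and ATOSA had a match, so the strongest peak at a noncoding start, at FPASL, was on a window without GTTGCC. The form GTTGCT, which differs in the last base, was not searched. It or its reverse complement AGCAAC can be read in the FPASL, LINC01778 and ATOSA sequences above. Its frequency in the other windows was not counted, so a window without GTTGCC is not one shown to lack every form of the half-site. Only these promoter windows were searched. Sequence under the other isolated peaks was not analysed here.
PIK3R3 match: gctccaggctccGGCAACcggcctcagcca
CEP164 match: tgcgcgctgcagGGCAACaccccggcgtcc
ATOSA match: ctttcctttcaaGTTGCCtaaacacagctg

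Several of the highest fold enrichments of either list belonged to isolated peaks. The FPASL peak had the 2nd highest fold of the 505 DMSO entries and the 4th highest of the 622 Nutlin-3a entries. In the DMSO list it spans chr7:76317980-76318375 with a fold of 19.01 and a −log10 q of 134, its summit being 86 bp upstream of the FPASL start. In the Nutlin-3a list it spans chr7:76317898-76318392 with a fold of 27.8 and a −log10 q of 210, its summit being 158 bp upstream. This Nutlin-3a entry had no whole-number pileup, so its fold, rank and summit are uncertain. The nearest coding gene, YWHAG, which encodes a 14-3-3 adaptor protein, ends 8638 bp from the DMSO summit and 8710 bp from the Nutlin-3a summit.

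**Figure D1:**
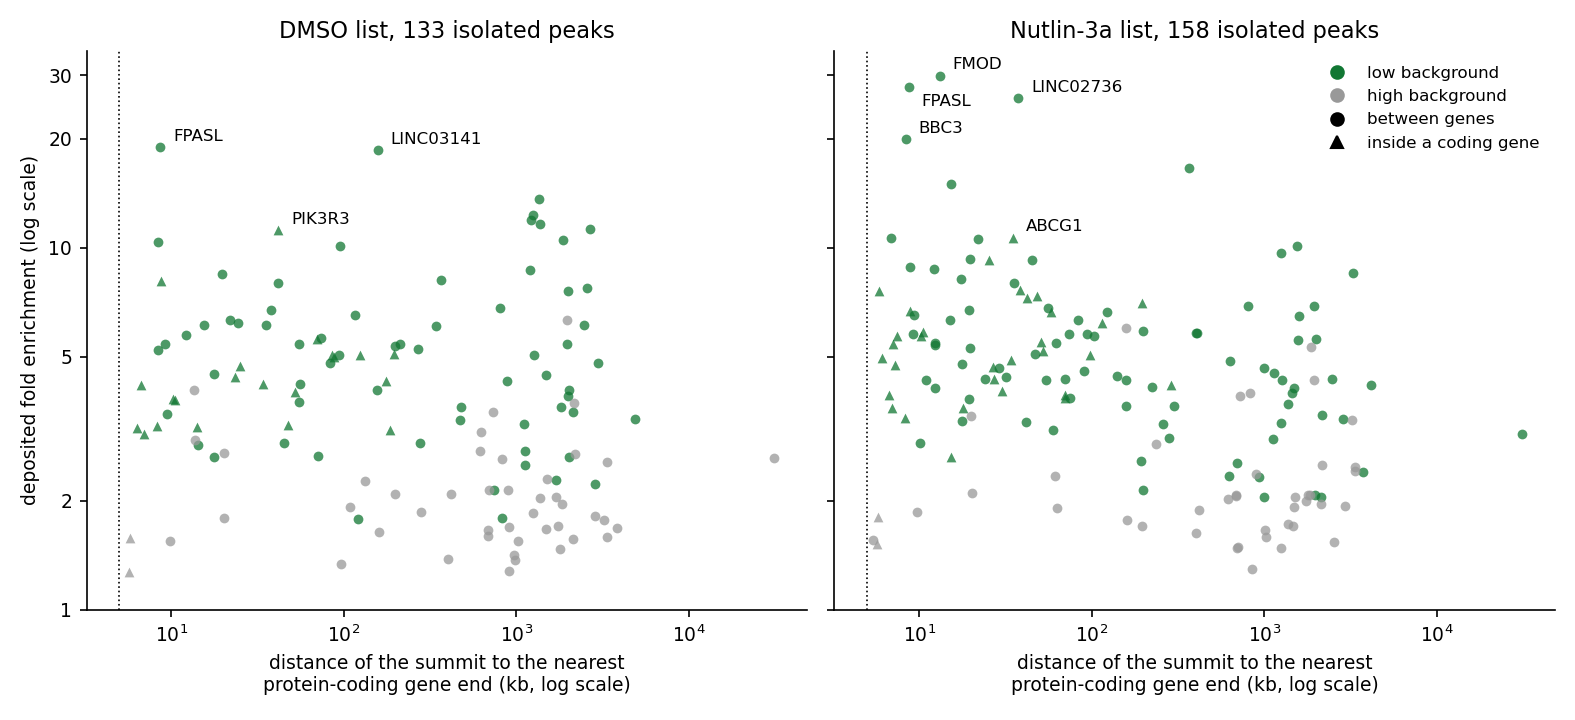
Deposited fold enrichment (log scale) against the distance of the summit to the nearest protein-coding gene end in kb (log scale) for each isolated peak, 133 under DMSO and 158 under Nutlin-3a. Points are coloured by background, triangles lie inside a coding gene, and the dotted line marks 5 kb. The highest point of each list lies within 50 kb of a coding gene end and on low background. Beyond 500 kb folds reach 13.7 under DMSO and 10.1 under Nutlin-3a, and grey points stay at a fold of 6.31 or below.

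The position and strength of each peak depend on the local background that the peak caller sets against it. Pileup and background were solved from each deposited fold and −log10 p. Background was called low when it was under 20 times the lowest value among entries on the same relation of q to p, since each list held entries on 2 such relations. Low background was found for 87 of 133 isolated DMSO peaks (65.4%, 57.0 to 73.0%) and 116 of 158 isolated Nutlin-3a peaks (73.4%, 66.0 to 79.7%), against 51.3% and 54.2% of all entries. Entries that were as far from genes but had more neighbours were on low background in 8.72% (DMSO) and 8.46% (Nutlin-3a) of cases. For entries within 5 kb of a coding gene end with at most 1 neighbour the shares were 99.1% and 97.0%. By this measure isolated peaks lie between the gene-near peaks and the crowded distant ones. Where an entry could not be solved to a whole-number pileup, its fold, summit and background are less certain. This held for 19 of the 133 DMSO and 52 of the 158 Nutlin-3a isolated peaks. Among the peaks named below it held for both FSTL1 entries, for the DMSO entry at LOC112268044, and for the Nutlin-3a entries at ABCG1, FOS, LINC01778, GNAI2, SESN2, CHIC2, VTRNA1-3 and LOC124905450, the second ATOSA peak, one NR2F2 peak and the far peak near PRIM2. Where it held at FPASL, BTG2, BBC3, LINC02736, LINC03141, PIK3R3 and TGIF1, this is said beside the values.

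Distance divided the isolated peaks further. Within 50 kb of a coding gene end there were 37 DMSO and 59 Nutlin-3a peaks, from 50 to 500 kb there were 36 and 42, and beyond 500 kb there were 60 and 57. In order of distance, low background was found for 81.1%, 77.8% and 48.3% of isolated peaks under DMSO and for 89.8%, 81.0% and 50.9% under Nutlin-3a. Median peak widths were 186, 150 and 101.5 bp under DMSO and 207, 173 and 112 bp under Nutlin-3a. A noncoding gene end within 5 kb was found for 14 of 37, 5 of 36 and 1 of 60 DMSO peaks, and for 21 of 59, 9 of 42 and 0 of 57 Nutlin-3a peaks. The intervals of the nearest and farthest classes do not overlap for low background in either list. Background and distance moved together, and the part of background in the width of distant peaks was not tested.

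**Figure D2:**
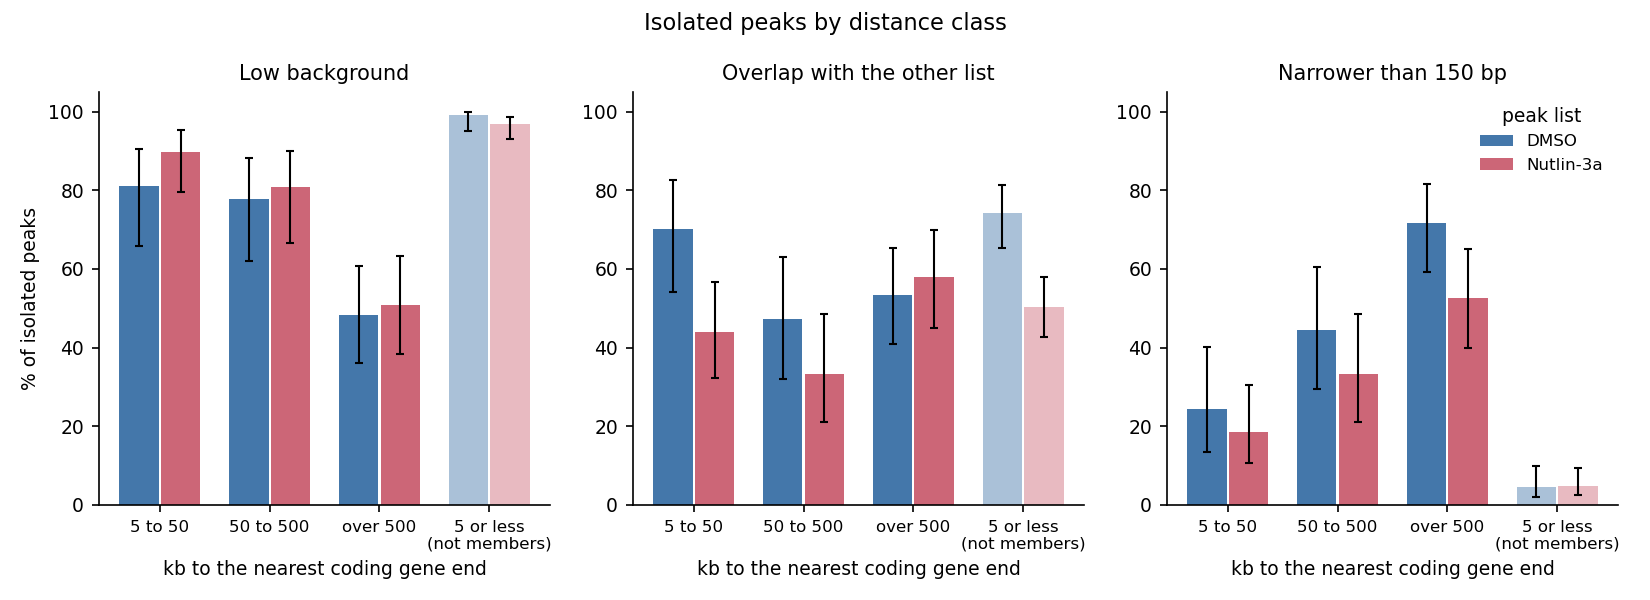
Percent of isolated peaks on low background, overlapping the other list, and narrower than 150 bp, by distance of the summit to the nearest coding gene end. Bars are shares, error bars 95% Wilson intervals, and the pale bars are isolated entries within 5 kb, which are not among the 291. Low background is lowest beyond 500 kb, at 48.3% and 50.9%, while peaks narrower than 150 bp reach 71.7% and 52.6%.

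An overlap of at least 1 bp with the other list was found for 75 of 133 isolated DMSO peaks (56.4%, 47.9 to 64.5%), against 74.3% of all DMSO entries. In the other direction 73 of 158 isolated Nutlin-3a peaks overlapped a DMSO entry (46.2%, 38.6 to 54.0%), against 56.9% of all Nutlin-3a entries. The isolated peaks were thus below the whole list in both directions, and the whole list's share lies above the interval in each. Isolated entries within 5 kb of a gene overlapped in 74.1% and 50.3% of cases, so in the Nutlin-3a list the isolated peaks near to and far from genes had overlapping intervals. On low background alone the shares of isolated peaks were 51.7% (DMSO, 41.4 to 61.9%) and 37.9% (Nutlin-3a, 29.6 to 47.0%). All entries on low background gave 63.3% and 46.0%. The list's share thus lies above the interval in the DMSO list but within it in the Nutlin-3a list. Peaks without a counterpart were narrow, with a median width of 92 bp under DMSO and 150 bp under Nutlin-3a, against 152 and 221 bp for those with one. Their median −log10 q was 7.12 and 8.39, against 16.2 and 30.8. An absent counterpart means that no peak passed the authors' threshold there, not that no signal was present.

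In 71 overlaps both entries were isolated peaks. The Nutlin-3a entry was wider in 53 of the 71, or 74.6%, against 82.6% of all 380 overlapping pairs of entries. It had the higher −log10 q in 56 of the 71, or 78.9%, against 76.6% of all pairs. The isolated pairs thus followed the same direction as the whole lists, with shares near that background. The summits of the 2 entries lay a median of 20 bp apart, and 44 of the 71 pairs had summits within 50 bp. This closeness came largely from the 29 pairs with high background in either list, with a median of 4 bp and 24 within 50 bp. Where neither entry had high background, the median was 51 bp and 20 of 42 pairs lay within 50 bp. Of those 42 pairs, 17 had a whole-number pileup for both entries, with a median of 20 bp and 11 within 50 bp. Width and −log10 q also depend on the depth of each list, which is not known, and its part was not tested.

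**Figure D3:**
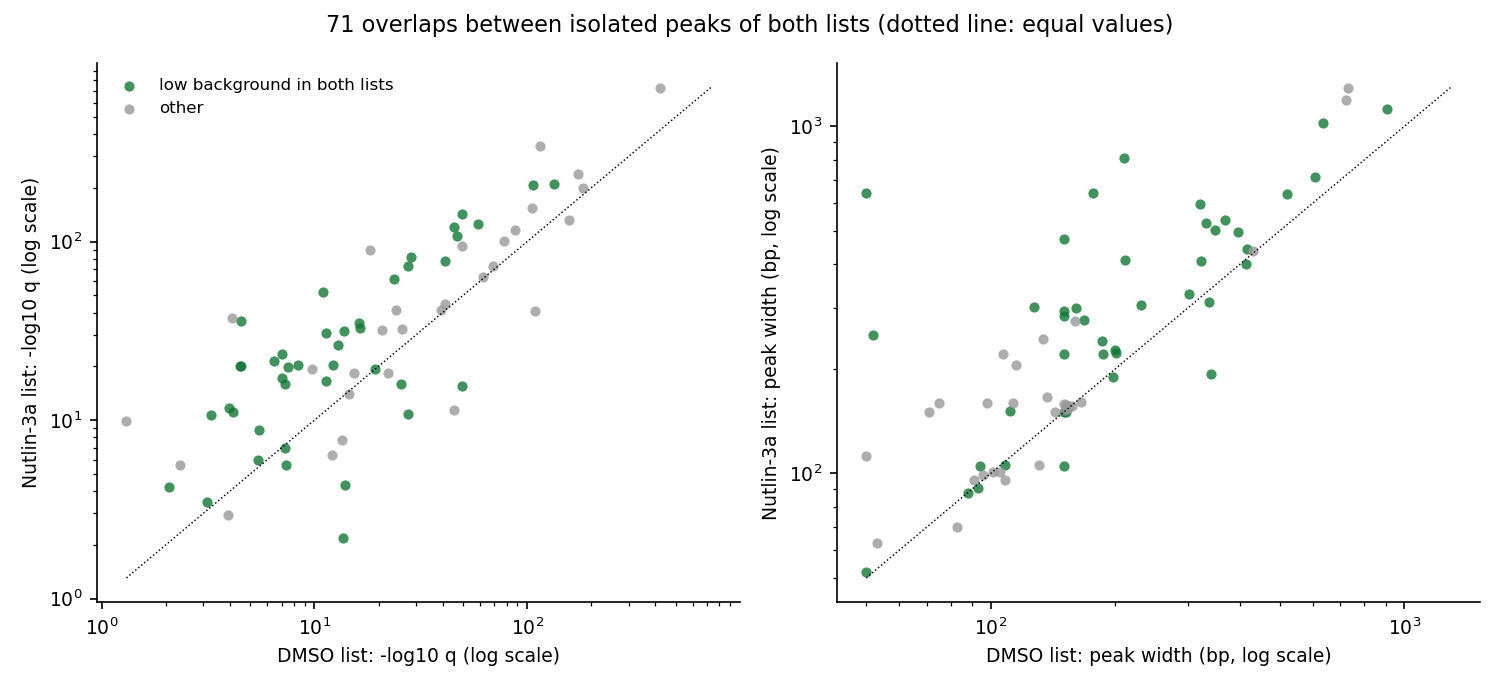
The −log10 q (left) and the peak width in bp (right) of the 71 overlaps between isolated peaks, DMSO list on the x axis and Nutlin-3a list on the y axis, both on log scales. Each point is 1 overlap, green where the background was low in both lists. Most points lie above the dotted line of equal values, 56 of 71 for −log10 q and 53 of 71 for width.

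Of 25 p53 target genes looked up, 3 had an isolated peak inside the gene or within 50 kb of an end, namely BTG2, BBC3 and SESN2. Over all 20056 coding genes the same measure gave 150, or 0.748%. The list was chosen with results of these data known, so its share is not independent evidence. BTG2 is an antiproliferative gene that p53 induces. The peak downstream of it was the 3rd highest by fold of the Nutlin-3a list, at chr1:203326672-203327963 with a fold of 29.9 and a −log10 q of 240. The DMSO entry at chr1:203327057-203327786 had a fold of 4.05 and a −log10 q of 174. Its pileup could not be solved to a whole number and its background was 29.5 times the lowest, so the fold of this entry is uncertain. The summits lie 17859 and 17559 bp from the BTG2 gene, between it and FMOD, a matrix proteoglycan gene whose near end is closer, at 13167 and 13467 bp.

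BBC3 encodes PUMA, a BH3-only activator of apoptosis. The isolated peak next to BBC3 lies 8422 bp from the gene in the Nutlin-3a list, at chr19:47241162-47241664 with a fold of 19.95 and a −log10 q of 121, the 13th highest fold of that list. In the DMSO list it spans chr19:47241193-47241540 with a fold of 5.23 and a −log10 q of 45.3. The DMSO entry had no whole-number pileup, so its fold cannot be set beside that of the Nutlin-3a entry. Both summits fall inside LOC124904731, an uncharacterised lncRNA gene. SESN2 encodes a stress-induced inhibitor of mTORC1 signalling, and its isolated peak lies 12096 bp away at chr1:28247205-28247614 in the Nutlin-3a list (fold 6.53) and at chr1:28247222-28247544 in the DMSO list (fold 5.42). ATP5IF1, the inhibitor of the mitochondrial ATP synthase, lies nearer to that SESN2 peak, at 9322 bp. All 3 sites thus carried a peak in both lists, and BBC3 was the nearest coding gene for 1 of the 3. SESN3, another member of the sestrin family that was not on the list, had a peak 21957 bp from the gene with a fold of 10.6 in the Nutlin-3a list and 6.33 in the DMSO list.

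Noncoding genes lay close to several of the other strong peaks between coding genes. LINC02736 is an lncRNA gene between NEAT1 and MALAT1, 2 abundant nuclear lncRNAs. Its peak was the 6th highest fold of the Nutlin-3a list, at chr11:65487300-65487835 with a fold of 26.0 and a −log10 q of 208. The DMSO entry at chr11:65487468-65487835 had a fold of 6.74 and a −log10 q of 106. Neither entry had a whole-number pileup, so both folds and both summits are uncertain. Both summits lie inside LINC02736, 588 and 584 bp downstream of its start, with MALAT1 10240 bp and NEAT1 41958 bp from the Nutlin-3a summit.

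**Figure D4:**
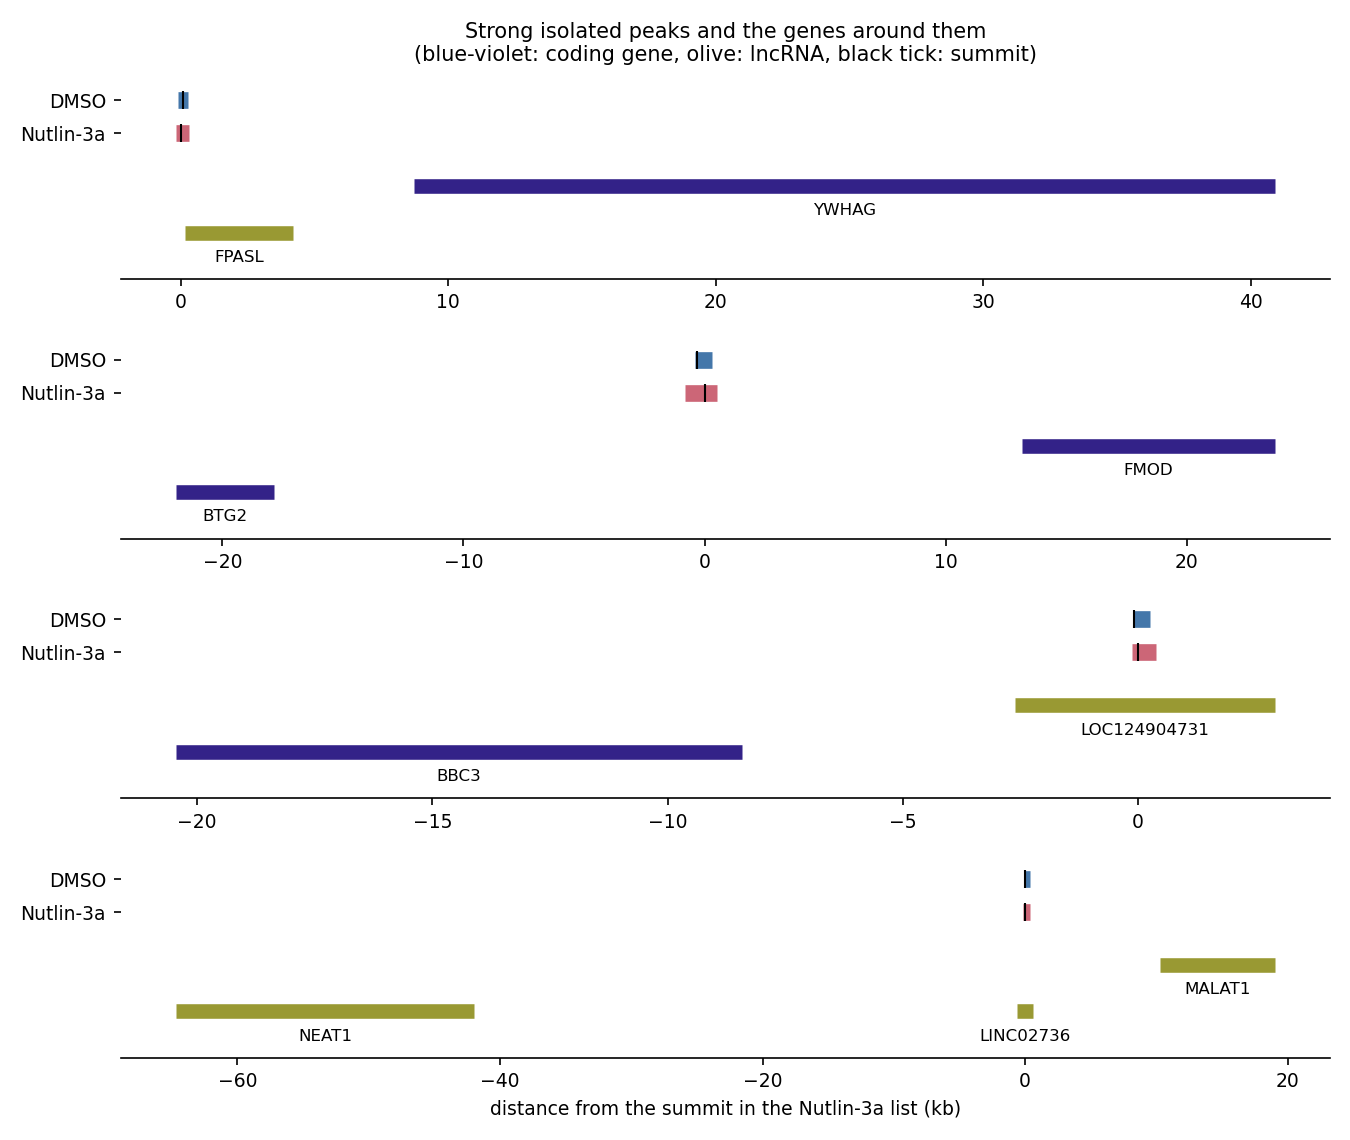
The isolated peaks at FPASL, between BTG2 and FMOD, next to BBC3 and inside LINC02736, drawn to scale against the distance in kb from the Nutlin-3a summit. Boxes labelled DMSO and Nutlin-3a are the peaks with a black tick at each summit, violet bars are coding genes and olive bars lncRNA genes. Each site has a peak in both lists, the summit at FPASL lies just upstream of that gene, and the BTG2 gene ends 17859 bp from the Nutlin-3a summit.

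LINC03141 lies 4709 bp from the 3rd highest fold of the DMSO list, at chr12:4030953-4031676 with a fold of 18.7 and a −log10 q of 115. The Nutlin-3a entry there, from chr12:4030758 to 4031946, had a fold of 6.01 but a −log10 q of 342, which was the 4th highest of its list. Its −log10 p lies beyond the numerical range of the calculation, so neither a whole-number pileup nor a background could be solved. This entry was counted with the high-background peaks, and its fold cannot be set beside that of the DMSO entry. The nearest coding gene, PARP11, a mono-ADP-ribosyltransferase gene, ends 157380 bp from it. DIRC3, an lncRNA gene, holds a peak with a fold of 8.18 under DMSO and 16.6 under Nutlin-3a, whose nearest coding gene end, at TNS1, is 365553 bp away. GASAL1, another lncRNA gene, holds a peak near its end with a fold of 6.14 in the DMSO list and 15.001 in Nutlin-3a cells, 15364 bp from AZIN1, the antizyme inhibitor gene.

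Noncoding gene ends within 5 kb were found for 20 of 133 isolated DMSO peaks (15.04%, 9.95 to 22.1%) and for 30 of the 158 isolated Nutlin-3a peaks (18.99%, 13.6 to 25.8%). The same measure over all entries gave 20.2% and 19.5%, so these shares are near the background of the lists. MEG3, an imprinted lncRNA gene, starts 1811 bp from a peak with a fold of 6.82 in the Nutlin-3a list and 1801 bp from one with a fold of 4.20 in the DMSO list. CHASERR, an lncRNA gene upstream of the chromatin remodeller CHD2, starts 287 bp from a DMSO summit (fold 4.49) and 338 bp from a Nutlin-3a summit (fold 4.77). LINC01778 had peaks with folds of 2.90 (DMSO) and 9.25 (Nutlin-3a), with summits 42 and 285 bp upstream of its start. EPCAM-DT (fold 4.36) and VTRNA1-3, a vault RNA gene 116 bp from a summit (fold 3.83), had a peak in the Nutlin-3a list and no overlapping DMSO entry.

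Some isolated peaks inside coding genes, a minority in each list, sat at a start that RefSeq lists for a shorter transcript of the same gene. The counts are of peaks and not of genes, and ATOSA gave 2 of those in the Nutlin-3a list. A listed start lay within 1 kb of the summit for 8 of 21 such DMSO peaks and 13 of 32 such Nutlin-3a peaks on chromosomes with listed windows, and in each case it was a start of the host gene. For isolated peaks between genes the counts were 6 of 104 and 7 of 119. Together this gave 14 of 125 under DMSO (11.2%, 6.79 to 17.9%) and 20 of 151 under Nutlin-3a (13.2%, 8.74 to 19.6%), against 20.4% and 21.6% of all entries. The rule removes peaks near the outer ends of coding genes, so the lower share among isolated peaks follows from how they were picked. Nearly all isolated peaks inside coding genes were on low background, 21 of 23 under DMSO and 31 of 33 under Nutlin-3a. The exceptions were the same 2 genes in both lists, DUX4 and LOC112268044.

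**Figure D5:**
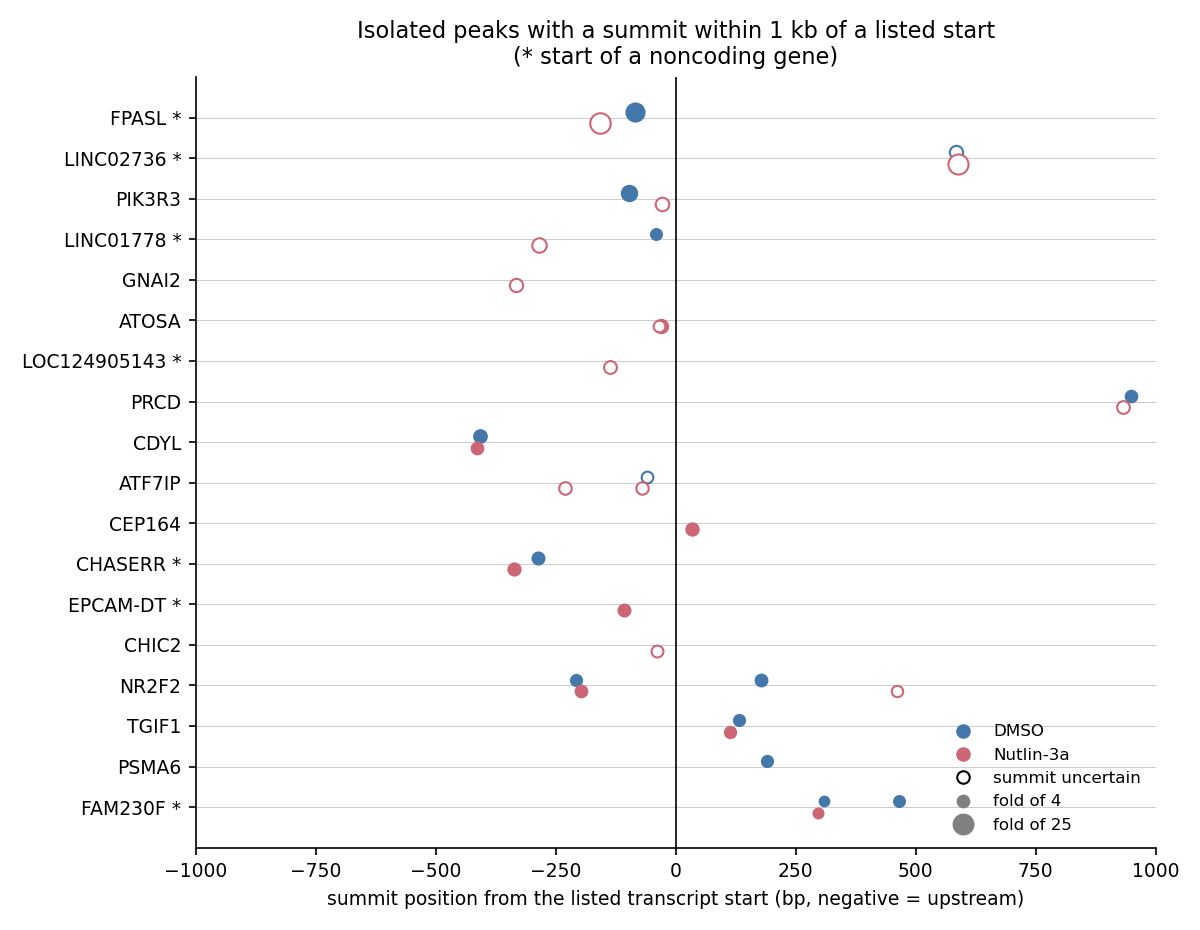
Summit position in bp from the nearest listed transcript start, negative upstream, for the 14 DMSO and 20 Nutlin-3a isolated peaks within 1 kb of one. Point size grows with fold enrichment, open points mark an uncertain summit, and stars mark noncoding genes. The FPASL, PIK3R3, ATOSA, CEP164, CHIC2 and EPCAM-DT summits all lie within 158 bp of the start.

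PIK3R3 and ATOSA were the 2 of 18 RFX7 target genes looked up that had an isolated peak, and in both the peak was inside the gene. The measure is the same as for the p53 targets, a peak inside the gene or within 50 kb of an end, which 0.748% of all coding genes met, and this list too was chosen with results known. PIK3R3 had the highest DMSO fold of the peaks inside coding genes, at chr1:46132906-46133542 with a fold of 11.2, a −log10 q of 58.7 and a summit 97 bp upstream of a listed start. That summit lies 41768 bp from the nearer end of the PIK3R3 gene. The Nutlin-3a entry there, at chr1:46132554-46133575, had a fold of 7.25 and a −log10 q of 125, with a summit 29 bp upstream of a further listed start of PIK3R3. It had no whole-number pileup, so its lower fold is uncertain. ATOSA had 2 peaks in the Nutlin-3a list and no overlapping DMSO entry. The first, at chr15:52651982-52652189, had a fold of 6.65 with a summit 30 bp upstream of a listed ATOSA start. The second, at chr15:52679381-52679533, had a fold of 4.03 with a summit 35 bp upstream of another ATOSA start. None of the 9 RFX family and partner genes looked up had such a peak.

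Further genes had a peak at an internal start. CDYL, a chromodomain corepressor gene, had folds of 5.59 (DMSO) and 3.92 (Nutlin-3a), with summits 408 and 414 bp upstream of a start. TGIF1, a homeobox corepressor gene of TGF-beta signalling, had folds of 3.21 and 3.38, with summits 132 and 113 bp downstream of a start. The TGIF1 body held a second isolated peak in both lists, with folds of 3.07 (DMSO) and 4.75 (Nutlin-3a). The Nutlin-3a entry of this second peak had no whole-number pileup. NR2F2, an orphan nuclear receptor gene, had 2 peaks in each list, with folds from 3.19 to 4.19 and −log10 q from 3.77 to 10.3. None of them overlapped between the lists, but they lie close together. The second DMSO peak ends at chr15:96332883 and the first Nutlin-3a peak starts at chr15:96333001, so the lack of overlap does not show separate sites. GNAI2, a G protein subunit gene (fold 6.69), CEP164 (4.95) and CHIC2 (4.34) had such a peak in the Nutlin-3a list and no overlapping DMSO entry. PSMA6, a proteasome subunit gene, had one in the DMSO list alone, with a fold of 3.20.

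The highest fold inside a coding gene in the Nutlin-3a list was not at an internal start. It lay in ABCG1, a cholesterol exporter gene, at chr21:42234753-42235170 with a fold of 10.7 and a −log10 q of 58.4, and the DMSO list had no overlapping entry. FSTL1, a follistatin-like gene, held a peak in both lists, with folds of 4.72 (DMSO) and 9.28 (Nutlin-3a). Among peaks between genes with no DMSO counterpart, the highest Nutlin-3a fold lay 6848 bp from CYP11A1, the cholesterol side-chain cleavage enzyme gene, at chr15:74374383-74374673 with a fold of 10.7. Another lay 17389 bp from CCNE1, the cyclin E1 gene, with a fold of 8.22. FOS, an immediate early transcription factor gene, had a peak in both lists, 19579 and 19749 bp away with folds of 8.46 (DMSO) and 9.31 (Nutlin-3a).

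Far from any coding gene, the DMSO list held several narrow peaks of high fold. The highest DMSO fold without a Nutlin-3a counterpart was at chr10:41232290-41232387, with a fold of 13.7 and a −log10 q of 59.5, 1341786 bp from the nearest coding gene end. The next 2, both on chromosome 17, at chr17:22919806-22919855 and chr17:25928757-25928806, had folds of 12.0 and 11.6 and −log10 q of 24.3 and 23.1, 1215218 and 1365333 bp from a coding gene end. Both were 50 bp wide, on the lowest background found among entries of their kind. In the Nutlin-3a list the corresponding highest far peak was at chr6:59202835-59203097 with a fold of 10.1, 1556011 bp from PRIM2. A peak at chr8:44618138-44618187 in the DMSO list (fold 12.3) overlapped one in the Nutlin-3a list (fold 9.69), 1252986 bp from a coding gene. The peaks farthest from a coding gene end were 31138009 bp (DMSO) and 31131348 bp (Nutlin-3a) away, on chromosome Y, with folds of 2.62 and 3.07. Peaks beyond 500 kb were found on 19 chromosomes under DMSO and 18 under Nutlin-3a, but unevenly. Chromosomes 10, 17 and 20 held 8, 7 and 7 of the 60 DMSO peaks, and 13, 9 and 8 of all 133 isolated DMSO peaks. Chromosomes 17 and 20 held 9 and 6 of the 57 Nutlin-3a peaks, and 13 and 10 of all 158 isolated Nutlin-3a peaks. Whether these far peaks lie in centromeric or repeated sequence was not examined.

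Over all isolated peaks the median fold was 3.52 under DMSO and 4.31 under Nutlin-3a, against 2.86 and 3.28 over all entries of each list. On low background the medians were 4.82 and 4.92, and on high background 1.86 and 1.98. By −log10 q the order was the other way, with medians of 11.5 and 13.9 for isolated peaks against 17.2 and 22.6 for all entries. Just inside it were peaks 5705 bp (LOC112268044), 5788 bp (DUX4) and 6310 bp (NR2F2) from a gene end in the DMSO list, with folds of 1.27, 1.58 and 3.19. Just outside were entries 4085 bp (PITX3), 4693 bp (NBPF8) and 4833 bp (MKNK2) away, with folds of 4.23, 2.13 and 8.41. In the Nutlin-3a list the nearest isolated peaks were 5386, 5711 and 5792 bp from LOC124905450, LOC112268044 and DUX4, with folds of 1.56, 1.52 and 1.81. The entries just outside were 4586, 4680 and 4841 bp from FLT3LG, LOC124905450 and TCF7L2, with folds of 4.57, 1.37 and 3.56. At the isolation limit, 93 DMSO and 116 Nutlin-3a isolated peaks had no other entry within 100 kb and 40 and 42 had 1, while 11 and 3 distant entries with 2 neighbours fell outside.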

How the data were processed

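RFX7 ChIP-seq of HCT116 cells was analysed from 2 deposited peak lists, 1 per treatment. Per the submitters' processing notes the build is hg38 and the tools include MACS2 2.2.7.1. The aligner, the filters and whether replicates were pooled are not given in the sources used here. Fold enrichment (a ratio), −log10 p, −log10 q and the score of each peak are as the authors deposited them. Pileup and background were computed from the deposited fold and −log10 p with MACS2's definitions assumed (fold as pileup plus 1 over background plus 1, p from the upper Poisson tail). The solution was accepted as whole when it met the −log10 p within 0.003, and was tested on simulated data that left out very high −log10 p values. Entries beyond the numerical range of the Poisson tail, among them the Nutlin-3a entry near LINC03141, could not be solved. Gene ends (20056 coding and 22249 noncoding genes) and promoter windows came from RefSeq tables of GRCh38.p14. No windows were listed for the chromosomes of 8 DMSO and 7 Nutlin-3a isolated peaks. Peak calls carry no sample values, depth is unknown and no statistical test of a difference was run. The rule for naming peaks took, per list and class, the highest folds on low and high background, those without counterpart, those at the limits, the farthest, those near noncoding ends, and those at genes of RFX7 target (18), p53 target (25) and RFX family (9) lists, of which a subset is printed. The isolated peaks and gene lists were chosen with earlier results of these data known. Peaks outside this rule, at MEG3, CHASERR, EPCAM-DT, VTRNA1-3, FOS, CCNE1, TGIF1, CEP164, CHIC2, PSMA6 and in part NR2F2, were chosen after their values were seen. One neighbouring gene is not reported here. Python 3.11.15, pandas 2.3.3 and scipy 1.17.1 were used.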

Additional observations from a re-analysis of the deposited data

How the results depend on the processing

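No paired analysis was possible because the peak calls carry 1 list per treatment and nothing per replicate. For that reason no replicate was left out. Of 79 alternative values of 13 results, 57 stayed within the interval of the share, or within 1.5 times the count, and 22 did not. A −log10 q of at least 10 left 75 DMSO and 93 Nutlin-3a isolated peaks, with overlap shares of 68.0% and 64.5% and, in the DMSO list, 10.7% inside coding genes. Requiring low background, an alternative added after seeing the data, left 87 DMSO peaks and gave a Nutlin-3a overlap share of 37.9%. Overlap of 50% of both peaks gave 47.4% for the DMSO list, and summits within 100 bp gave 44.4% (DMSO) and 36.7% (Nutlin-3a). For these 2 settings and the −log10 q limit, overlap shares over all entries were not computed. These shares therefore cannot be set beside the 74.3% and 56.9% of all entries given above. With a gene distance of over 2 kb, 25.2% (DMSO) and 29.5% (Nutlin-3a) lay inside coding genes. With over 50 kb the shares were 8.33% and 9.09%, and 99 Nutlin-3a peaks remained. A background limit of 40 times gave low background shares of 77.4% and 82.3%, and a limit of 10 times gave 64.6% in the Nutlin-3a list. Noncoding ends within 1 kb were found for 9.02% and 10.8%, and within 10 kb for 26.6% of Nutlin-3a peaks. GTTGCC in place of GTTGCCA moved the motif share from 0 to 20%. The causes were not tested, beyond the fewer or more peaks that each setting takes by construction. Motif windows around summits were not run, since no genome of the build was used here.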
